A study of Sus scrofa with 4 samples.

Results

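The growth factors of the FGF, PDGF, VEGF and HGF families, with the macrophage growth factor CSF1, were examined in porcine intramuscular fat cells. The group was defined by gene symbol as VEGFA, FGF2, FGF7, FGF10, FGFR1, PDGFC, PDGFRA, PDGFRB, HGF and CSF1, and its probes were those on the array that carry one of these names. Of the 10 genes, 6 had a probe of that name, with 13 probes in all among 43603 probes and 34853 gene names. FGF2, FGF7, PDGFRA and HGF had none, and they are not analysed here.

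These factors are secreted proteins that bind receptor tyrosine kinases on the surface of a cell. The bound receptor recruits adaptor proteins and switches on the RAS and ERK cascade and PI3 kinase, and genes such as the Sprouty family then restrain the signal. In fat tissue VEGFA drives the growth of capillaries, FGF10 supports preadipocytes, PDGF receptors mark progenitor and perivascular cells, and CSF1 maintains macrophages.

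Porcine intramuscular preadipocytes (PIP) are a cell line derived from the longissimus muscle of a female Duroc pig. They were grown without differentiation medium, or were turned into adipocytes (pMA) once they were 4 days past confluence. The pMA received 4 days of a medium with 50 ng/ml insulin, 0.25 µM dexamethasone, 2 mM octanoate and 200 µM oleate. Further pMA, which had received the same medium, were stimulated for 12 h with serotonin at 100 µM (written per ml in the sample labels) or with TNF-α at 2.5 µg/ml. Whether unstimulated pMA were kept for the same 12 h was not stated. RNA was pooled within each of the 4 groups and measured on 1 one-color array per group. There was thus no replicate check for any difference on these arrays, no test was made, and the number of arrays limits the precision. The paper also reports quantitative PCR from independent experiments, with CSF1 significantly higher after serotonin and after TNF-α. The primer sequences it lists for CSF1 are also those it lists for the complement gene C3. The only error that could be measured was that of probes spotted repeatedly on an array, which gave a standard deviation (SD) of a log2 difference of 0.19 for pMA minus PIP, 0.17 for serotonin minus pMA and 0.20 for TNF-α minus pMA. This SD leaves out the variation between cultures and that of labelling and hybridization between arrays. A difference larger than this SD may therefore still be error.

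The 75th percentile of intensity lay between 479 and 566 on the 4 arrays, while the median ran from 31.6 in PIP to 46.3 after TNF-α. From 56.5 to 66.0% of probes were well above background. Levels are given below as log2 signal relative to the 75th percentile of the same array, so that 0 marks that percentile, and levels of different probes cannot be set against each other. The cell type markers followed the labels only in part. Of 10 adipocyte markers, 7 were well above background in PIP, pMA and serotonin-stimulated pMA and 8 in TNF-α-stimulated pMA. Their summed linear signal was 3.16 in PIP, 16.2 in pMA, 39.4 after serotonin and 22.8 after TNF-α. This sum rests mostly on the bright probes of PLIN2 and LPL, and does not stand for the 10 markers together. PLIN2 was at 0.29, 3.42, 4.42 and 3.50 and LPL at 0.63, 1.00, 3.41 and 2.28 in the same order. The lipid uptake receptor CD36 was at -3.99, 1.18, 2.65 and 1.66 in this order. The fatty acid carrier FABP4 was not well above background in PIP and was at -1.67 in pMA, -4.44 after serotonin and -0.23 after TNF-α, so that its serotonin level lay below that of pMA, unlike the sum. Further, the lipid droplet protein PLIN1 was not well above background on any array and the hormone gene ADIPOQ was so only in PIP. Of 5 endothelial markers, PECAM1 and KDR were well above background on all 4 arrays, VWF in pMA and after TNF-α, and CDH5 and TEK on none. Of 2 macrophage markers, CD14 was well above background on all 4 arrays and CD163 on none. Of 5 skeletal muscle markers, MYOG, DES and PAX7 were well above background on all 4 arrays, and MYOD1 and MYF5 on none. In bulk RNA, fewer cells of a type and less RNA per cell cannot be told apart.

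Of the 13 probes, 12 were well above background on all 4 arrays and 1 on none. The plot of levels by array shows each of them.

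**Figure D1:**
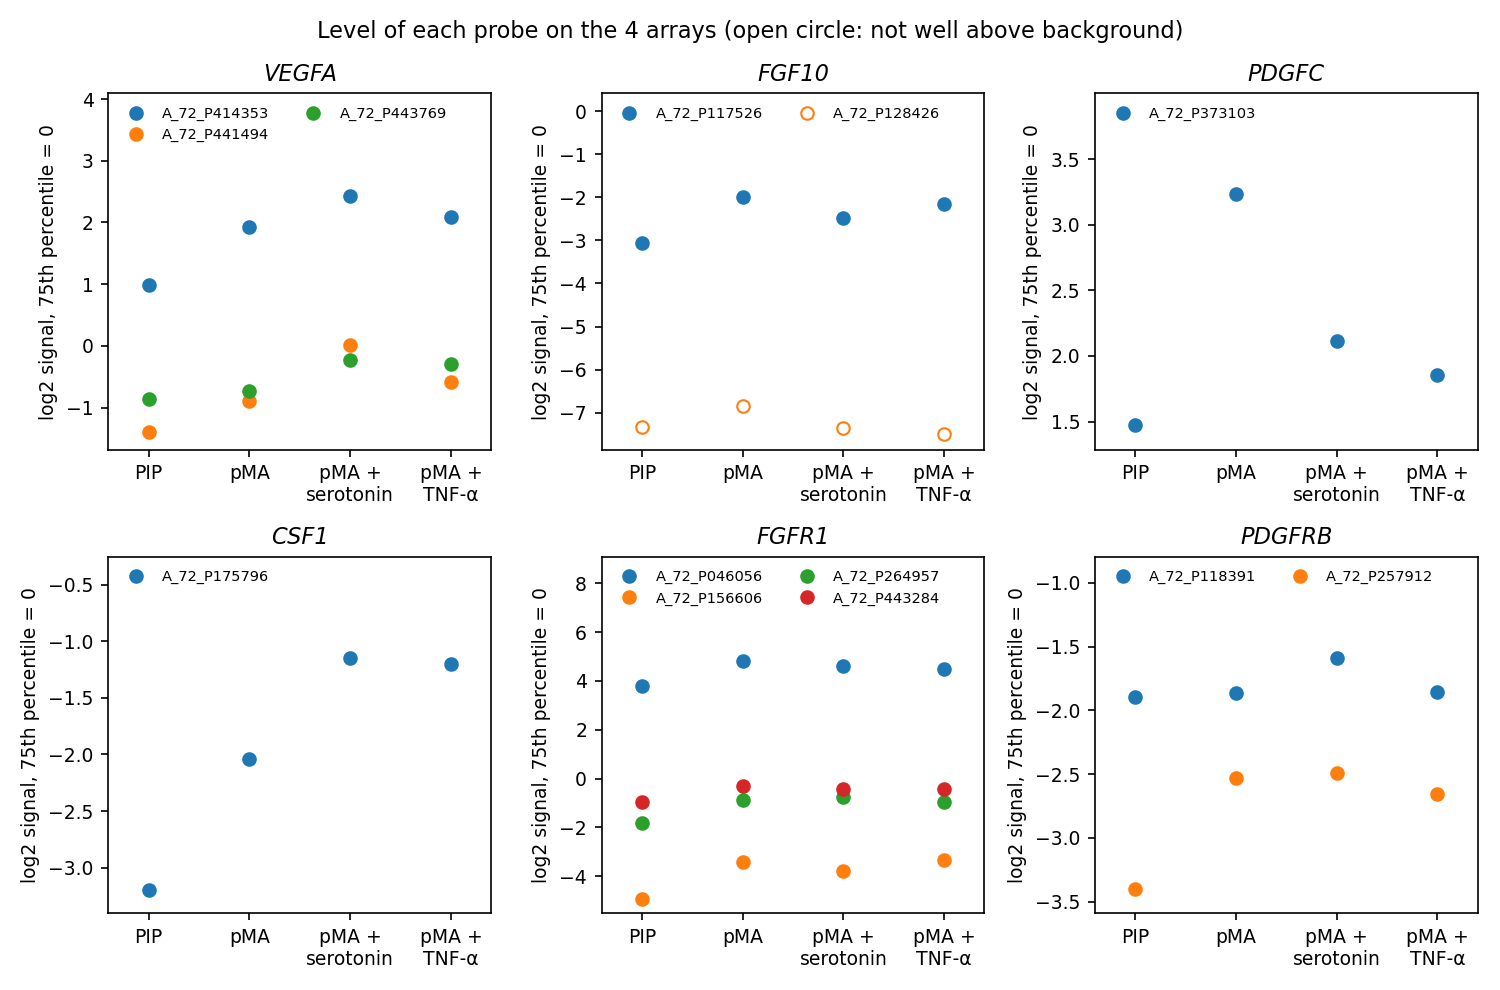
Level of every probe of the 6 genes on the 4 arrays, as log2 signal with the array's 75th percentile at 0. Each point is 1 probe on 1 array and there are no error bars, since each group had 1 array. The open circles of FGF10 mark the probe that was not well above background on any array. PDGFC was highest in pMA and CSF1 was lowest in PIP.

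In the comparison of pMA with PIP, which addresses differentiation, the genes with a probe lay mostly higher in pMA. These groups also differed in the insulin, dexamethasone, octanoate and oleate of the medium, which cannot be told apart from differentiation. A gene was represented by its brightest probe. PDGFC, CSF1, FGF10 and FGFR1 were at least 2-fold higher, VEGFA was 1.91-fold higher and PDGFRB lay close to 1-fold. Thus 4 of 6 genes were higher by at least 2-fold, beside 9.94% of the 18634 gene names with a value. All 6 lay above 0, PDGFRB by a value that turned sign with the scaling, beside 58.1% of gene names. No gene of the group was lower by that much, beside 3.56% of gene names. Their median log2 difference was 1.06, and that of 16588 gene names measured on both arrays was 0.11. The scaling weighed on this count: it was 1 of 6 when the arrays were scaled to their medians and 2 of 6 after normexp background correction. All gene names past 2-fold in either direction numbered 2501 and 824 in these settings, in place of 2515. Of these, 34.1% and 56.6% were higher, in place of 73.6%. Scaling to the median moved the median of all gene names to -0.24, and scaling to spike-in controls moved it to 0.45.

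After stimulation the genes did not lie on one side. Serotonin and TNF-α were each compared with the same pMA array, so an error on that array enters both differences. PDGFC was the only gene of the group past 2-fold, and it was lower after each agent. This was 1 of 6 genes after serotonin, beside 4.73% of gene names that were lower by at least 2-fold, and 1 of 6 after TNF-α, beside 1.34%. None was higher by 2-fold, beside 2.08% and 2.21% of gene names. By any size, 3 of 6 were higher after serotonin and 3 of 6 after TNF-α, beside 51.2% and 50.7% of gene names. After TNF-α, VEGFA at 0.16, PDGFRB at 0.01 and FGF10 at -0.18 lay within the SD of 0.20. The sign of PDGFRB there turned with the scaling. The median log2 difference of the 6 genes was 0.02 after serotonin and -0.09 after TNF-α, and that of all gene names was -0.01 and -0.03. In its array results the paper lists CSF1 and FGFR1 as upregulated after both agents, and VEGFA after serotonin only. It lists FGF10 and PDGFC as upregulated after TNF-α and unchanged after serotonin. Here CSF1 was higher after both agents, whereas PDGFC and the brightest probes of FGF10 and FGFR1 were lower. The reason for this difference was not tested.

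**Figure D2:**
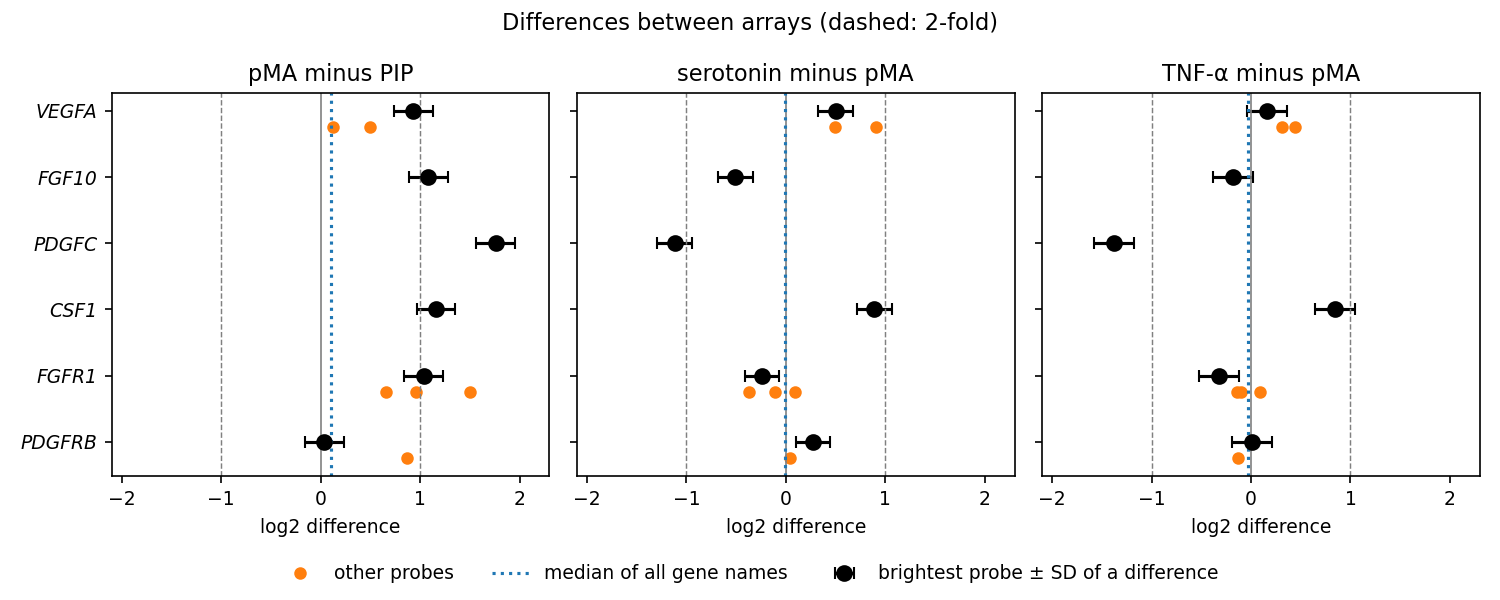
Log2 difference of each gene in the comparisons of pMA with PIP, serotonin with pMA and TNF-α with pMA. Black points are the brightest probe with the SD of a difference from repeated spots, orange points are the other probes with a value, the dotted line is the median of all gene names and dashed lines mark 2-fold. Only PDGFC passed a dashed line after stimulation, at -1.12 and -1.38.

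Among the ligands, VEGFA encodes the main growth factor of blood vessel endothelium and had 3 probes. The sequences of 2 of them are shown because they read different parts of the coding sequence. By their translated sequence, the first lies in the stretch that the main isoforms share, and the second in the exon for the heparin-binding part, which the shortest common isoform lacks. They begin at bases 366 and 462 of the transcript they were designed on. The files give no chromosome position for them.
VEGFA probe A_72_P414353: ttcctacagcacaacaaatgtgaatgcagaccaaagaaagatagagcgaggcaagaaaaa
VEGFA probe A_72_P441494: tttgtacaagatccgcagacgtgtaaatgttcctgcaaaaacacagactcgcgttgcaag
The shared probe A_72_P414353, the brightest, was at 0.99 in PIP, 1.93 in pMA, 2.43 after serotonin and 2.09 after TNF-α, from intensities of 1026, 1819, 3046 and 2374. The heparin-binding probe A_72_P441494 was at -1.39, -0.89, 0.02 and -0.58. Both were lowest in PIP and highest after serotonin. The remaining probe, A_72_P443769, was at -0.85, -0.72, -0.23 and -0.29. Its array order was the same, but its distance between PIP and pMA was 0.13, less than the SD of a difference.

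After serotonin the 3 VEGFA probes were higher than in pMA by 0.50, 0.91 and 0.50 in the order above. After TNF-α they were higher by 0.16, 0.31 and 0.44, and the brightest probe then differed by less than the SD of 0.20. The heparin-binding probe exceeded the shared probe in its serotonin difference by 0.41 (SD 0.25 from repeated spots), and in its TNF-α difference by 0.15 (SD 0.29). In pMA minus PIP its difference minus that of the shared probe was -0.44 (SD 0.27). At this scaling the 3 probes thus shared a direction in each of the 3 comparisons, while the sizes were not alike.

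FGF10, a mesenchymal factor that acts on preadipocytes and epithelia, had 2 probes that gave different pictures. The probe that reads as coding sequence is shown because it gave no signal.
FGF10 probe A_72_P128426: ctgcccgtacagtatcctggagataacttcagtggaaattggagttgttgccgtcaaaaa
It was not well above background on any of the 4 arrays. The other probe, A_72_P117526, which has a stop codon in every forward frame, was at -3.07 in PIP, -1.98 in pMA, -2.49 after serotonin and -2.17 after TNF-α. PIP was the lowest of the 4 arrays. The gene was 2.12-fold higher in pMA than in PIP by this probe alone, a log2 difference of 1.08. That difference fell below 2-fold after scaling to medians (0.73), by quantiles (0.89) and after normexp correction (0.60). The serotonin difference of FGF10 from pMA was -0.51 on the log2 scale. The TNF-α difference of -0.18 was smaller than the SD.

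PDGFC encodes a PDGF ligand that binds the PDGF alpha receptor, and its 1 probe was at 1.47 in PIP, 3.23 in pMA, 2.12 after serotonin and 1.85 after TNF-α. The intensities behind these levels were 1432, 4502, 2452 and 2020. The pMA array stood above the other 3. The gene was 3.39-fold higher in pMA than in PIP, and 1.43% of gene names measured on both arrays had a larger difference upward. It was 2.17-fold lower than in pMA after serotonin and 2.60-fold lower after TNF-α, where 3.12% and 0.278% of gene names had a larger difference downward. Set against PIP, the log2 difference was 0.64 in the serotonin group and 0.38 in the TNF-α group. The 3 differences kept their direction and stayed past 2-fold in all 10 processing settings that gave values.

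CSF1, also called macrophage colony-stimulating factor, supports the survival of macrophages. It had 1 probe, designed on a partial porcine cDNA from base 555, and its sequence is shown because every CSF1 array value rests on it.
CSF1 probe A_72_P175796: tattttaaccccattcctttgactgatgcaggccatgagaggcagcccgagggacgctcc
It was at -3.20 in PIP, -2.04 in pMA, -1.15 after serotonin and -1.20 after TNF-α, from intensities of 56.1, 116, 255 and 244. PIP was lowest, pMA was next, and the stimulated arrays lay close together above it. The gene was 2.24-fold higher in pMA than in PIP, a log2 difference of 1.16. That difference fell below 2-fold after scaling to medians (0.81), by quantiles (0.95) and after normexp correction (0.72). CSF1 was higher than in pMA by 0.89 after serotonin and by 0.84 after TNF-α, and 2.61% and 2.70% of gene names had a larger difference upward. Against PIP this came to 4.14-fold and 4.00-fold. After normexp background correction the stimulation differences were 0.61 and 0.56, the smallest among the alternatives. The macrophage marker CD14 was at 0.44, 0.90, 0.88 and 1.56 on the same arrays, and the other macrophage marker present, CD163, was well above background on none. The part of these markers in the CSF1 values was not tested.

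Among the receptors, FGFR1 is the main FGF receptor of mesenchymal cells and had 4 probes. Their places in the receptor were read from the translated probe sequences and not from an annotation. The brightest, A_72_P046056, was at 3.80 in PIP, 4.83 in pMA, 4.59 after serotonin and 4.51 after TNF-α. The probe that reads as the acid box between the Ig-like domains, A_72_P264957, was at -1.82, -0.87, -0.78 and -0.97. The probe that reads as the end of the kinase domain, A_72_P443284, was at -0.95, -0.30, -0.41 and -0.45. All had their lowest level in PIP. The probe A_72_P156606 reads as the alternative exon of the IIIc isoform, the form typical of mesenchymal cells, and was at -4.93, -3.43, -3.79 and -3.34. PIP was again the lowest array.

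All 4 FGFR1 probes were higher in pMA than in PIP, by 1.57-fold to 2.83-fold. The largest of these ratios came from A_72_P156606 and the smallest from A_72_P443284. The largest rests on a PIP intensity of 16.9, close to 14.7, the lowest among probes well above background on that array. By the brightest probe the log2 difference was 1.04, and it fell below 2-fold after scaling to medians (0.69). The median over the 4 probes was 0.996. After serotonin the probes differed from pMA by -0.37 to 0.09, with 3 of 4 lower. After TNF-α they differed by -0.33 to 0.09, again with 3 of 4 lower. The brightest probe, at -0.24 and -0.33, was thus lower by more than the SD of a difference, whereas the probes did not share a direction.

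PDGFRB, the receptor for PDGF-BB and a marker of pericytes and fibroblast-like cells, had 2 probes. The brighter, A_72_P118391, was at -1.90 in PIP, -1.86 in pMA, -1.59 after serotonin and -1.85 after TNF-α. Its differences in pMA minus PIP, 0.04, and in TNF-α minus pMA, 0.01, were below the SD, and their sign turned with the scaling. The dimmer, A_72_P257912, was at -3.40, -2.53, -2.49 and -2.66, and was 0.87 higher in pMA than in PIP. The probes therefore disagreed on pMA minus PIP, and 55.1% of gene names had a larger difference upward than the brighter one. After serotonin the brighter probe was 0.27 higher than in pMA and the dimmer 0.04. The other pericyte or smooth muscle markers well above background on all 4 arrays were ACTA2, at 9.66, 9.85, 8.97 and 9.68, and CSPG4, at 1.10, 1.00, 0.19 and 1.74. The pericyte marker RGS5 was at -3.74 in PIP and -2.93 after serotonin and was not well above background in pMA or after TNF-α. Its serotonin level exceeded that of pMA by at least 3.27-fold. The part of these markers in the PDGFRB values was not tested.

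**Figure D3:**
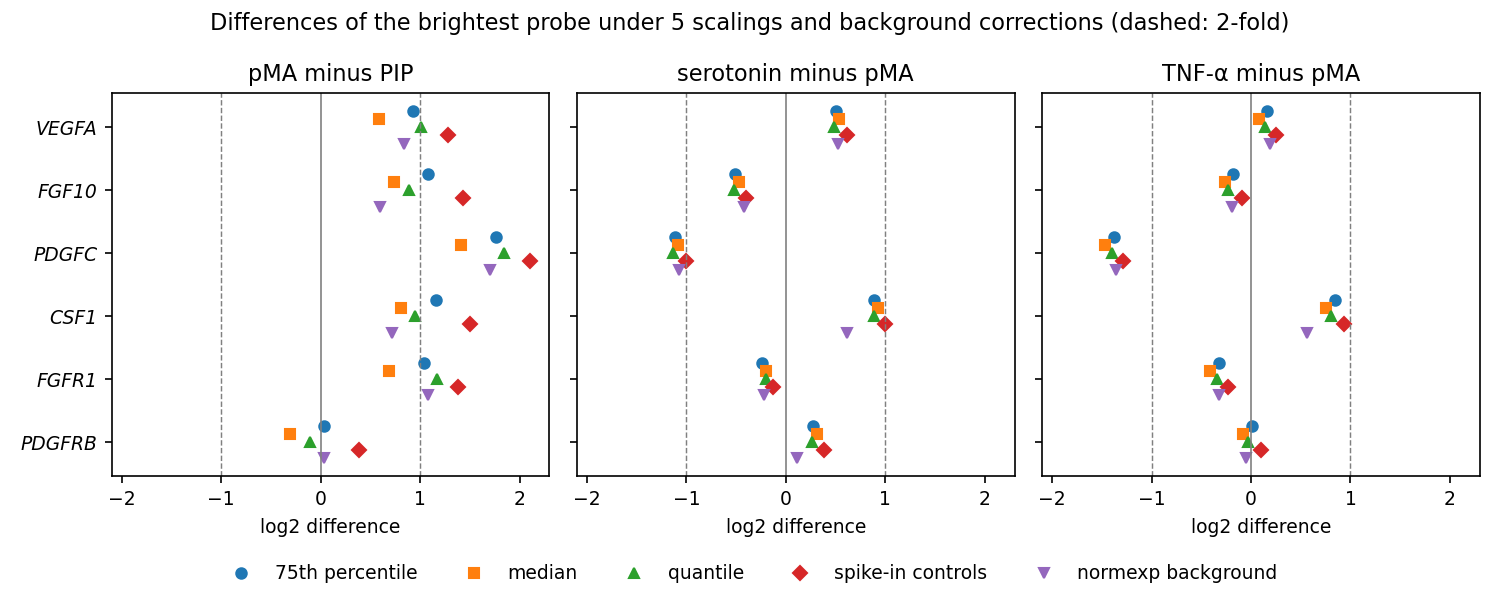
Log2 difference of the brightest probe of each gene in the 3 comparisons after scaling to the 75th percentile, to the median, by quantiles or to spike-in controls, and after normexp background correction. In pMA minus PIP, PDGFC was past the dashed 2-fold line in every setting plotted, from 1.41 to 2.11, and PDGFRB lay on either side of 0. In the stimulation comparisons the settings lay closer together.

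The other genes of these pathways were taken from lists of 101 genes, of which 43 were on the array by name or by matched accession. In pMA minus PIP, 32 of them had a value, and 2 were higher and 2 lower by at least 2-fold, beside 13.5% of all gene names in either direction. Their median log2 difference was -0.04 over 30 measured genes. After serotonin 4 were higher and 2 lower of 31 with a value, beside 6.82% of all gene names, and the median was 0.12. After TNF-α 1 was higher and none lower of 32, beside 3.56%, and the median was 0.07.

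Of the partners of the ligands, FLT1 and KDR are receptors for VEGFA. FLT1, identified by accession, was at 3.32 in PIP, 3.24 in pMA, 3.53 after serotonin and 3.54 after TNF-α. KDR, the main signalling receptor of endothelium, was at -2.20, -2.29, -3.05 and -2.46, by 1 of its 3 probes. The array with the highest VEGFA level, that of serotonin, was the one with the lowest KDR level. The endothelial gene PECAM1 was at 0.42, -0.20, -1.66 and -0.14 on these arrays and its part was not tested. PGF, a VEGF family ligand that binds FLT1, was at -4.36, -2.92, -2.86 and -2.07. It was 1.44 higher in pMA than in PIP, 0.06 higher than pMA after serotonin and 0.85 higher after TNF-α.

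MET, the HGF receptor, was at -3.30, -3.36, -3.21 and -3.53, and its differences of -0.06, 0.14 and -0.17 were each below the SD. FGFR2, a receptor for several FGFs including FGF10 in its epithelial form, was at -0.73, -1.15, -1.55 and -0.82. Its 2 probes with a value disagreed in pMA minus PIP, at -0.42 and 0.39. No probe was matched to CSF1R, PDGFA, PDGFB or VEGFC, and they are not analysed here.

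The feedback inhibitors held the largest difference of the pathway lists in pMA minus PIP. SPRY2, a Sprouty protein that restrains RAS and ERK signalling, was at 0.95 in PIP, 4.02 in pMA, 3.90 after serotonin and 3.56 after TNF-α. It was 3.07 higher in pMA than in PIP, and its stimulation differences were -0.12 and -0.46. SPRY1, of the same family and identified by accession, was at -2.87, -2.54, -1.03 and -3.44. It was 1.51 higher than in pMA after serotonin and lower after TNF-α, at -0.90. DUSP6, a phosphatase of ERK, was at 1.94, 2.46, 3.63 and 2.17, which was 1.17 higher than in pMA after serotonin and -0.28 after TNF-α. Of the 4 feedback inhibitors with a value, 2 were past 2-fold after serotonin, beside 6.82% of all gene names, and none after TNF-α, beside 3.56%.

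Among the transcriptional targets of ERK, the growth regulator MYC was at 2.74 in PIP, 1.09 in pMA, 2.33 after serotonin and 1.55 after TNF-α. Its 3 probes were lower in pMA than in PIP, from -1.73 to -1.51, and they were higher than in pMA in both stimulated groups, by 1.15 to 1.24 for serotonin and 0.46 to 0.53 for TNF-α. IER3, an immediate early gene that is also a target of NF-κB, was at 1.93, 0.82, 2.59 and 1.63. Both genes were lowest in pMA among the 4 arrays. The third gene of the list with a value, the transcription factor ETV1, was lowest in PIP, at 0.35, 1.08, 1.27 and 1.14. The 2 probes of IER3 lay from -1.10 to -0.70 in pMA minus PIP, at 1.70 and 1.77 for serotonin, and at 0.75 and 0.81 for TNF-α.

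Heparan sulphate proteoglycans hold FGFs and heparin-binding VEGFA forms at the cell surface. SDC2, a syndecan with 8 probes, was at 7.83, 7.48, 6.36 and 7.34 by its brightest. All 8 probes were lower than in pMA after serotonin, from -1.82 to -1.05, and they lay from -0.16 to -0.01 after TNF-α. SDC4, also a syndecan, was at 0.37, 0.25, 1.00 and 1.29, which was 0.75 higher than in pMA after serotonin and 1.04 higher after TNF-α. GPC3, a glypican, was at -3.85, -3.21, -4.57 and -3.16, a serotonin difference of -1.35 by 1 of its 2 probes. The progenitor and fibroblast marker THY1, at 5.58, 5.46, 4.59 and 5.09, was also lowest after serotonin. Of the other progenitor markers on the array, CD34 was well above background only in pMA and after TNF-α, and DLK1 only after TNF-α. The part of these markers in the proteoglycan values was not tested.

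The 11 adaptors and relays on the array, among them GRB2 and MAP2K1, all had a value in each comparison. By its brightest probe none was past 2-fold in any of the 3, beside 13.5%, 6.82% and 3.56% of all gene names, shares at which few of 11 genes would pass. Their medians were -0.03, 0.08 and 0.07. In pMA minus PIP the dimmer ARAF probe was past 2-fold, at 1.03 beside 0.04 for the brightest, and CBL was at 0.97.

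**Figure D4:**
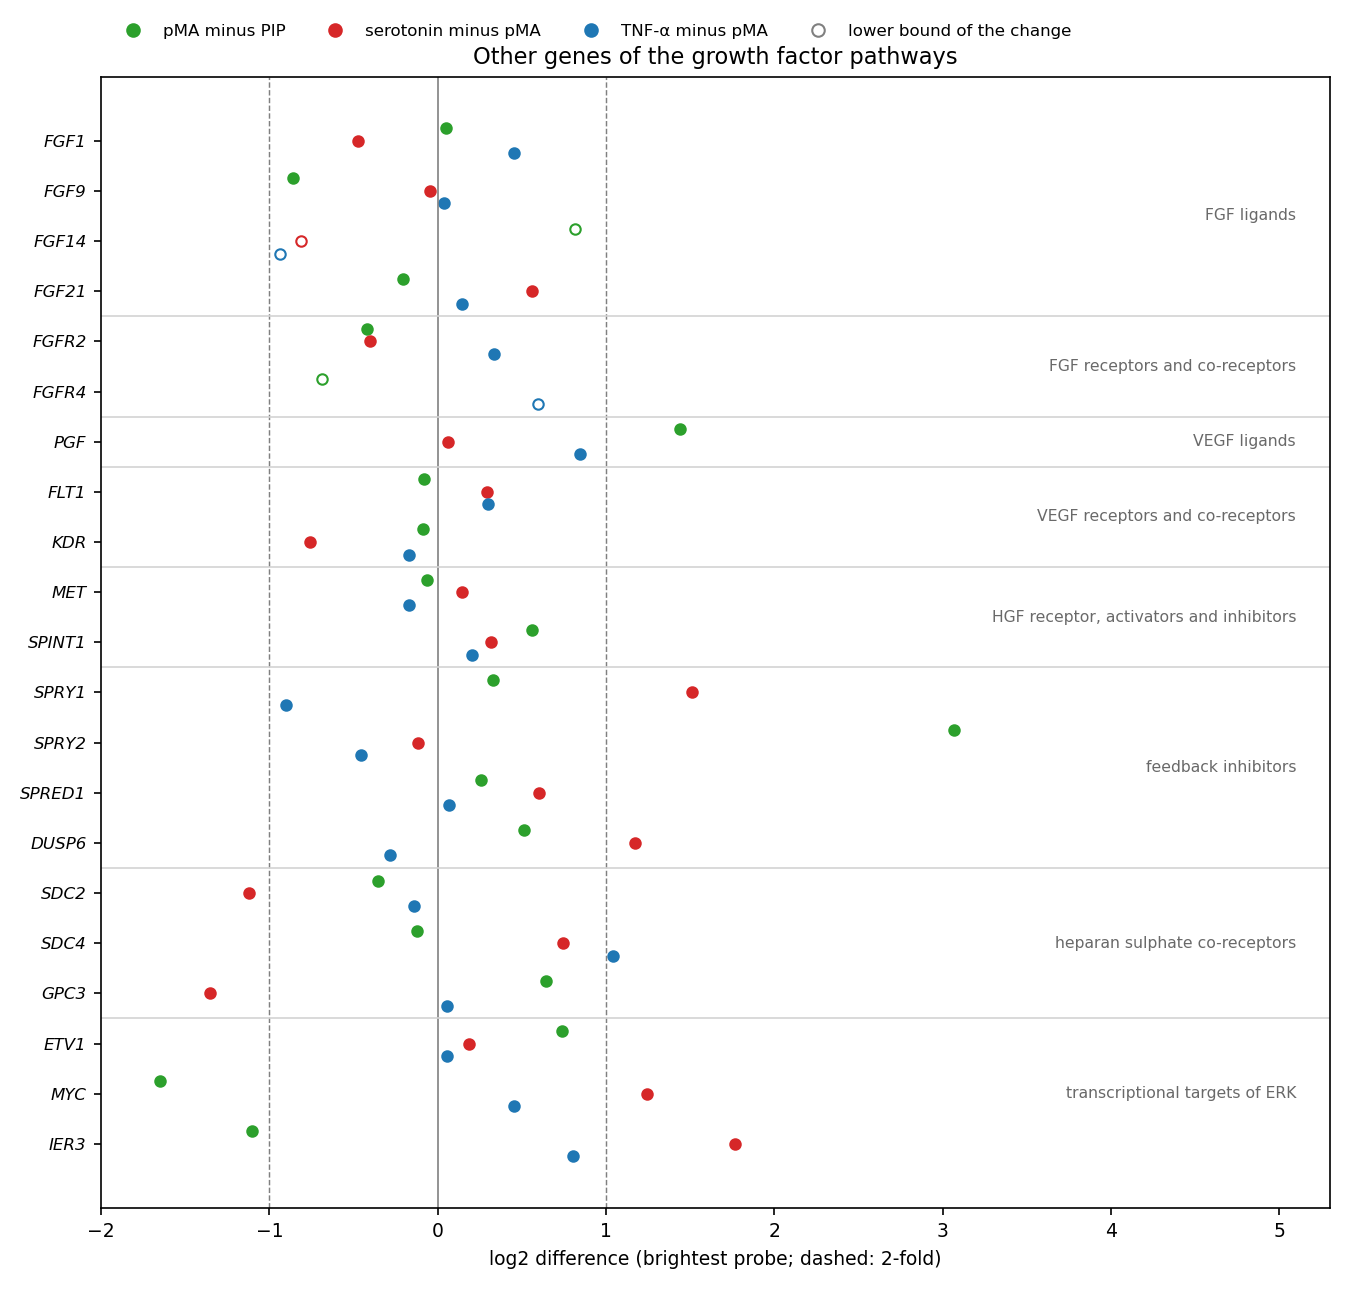
Log2 difference of the other pathway genes with a value, by list and without the adaptors and relays, for pMA minus PIP (green), serotonin minus pMA (red) and TNF-α minus pMA (blue). Each point is the brightest probe of a gene on 1 pair of arrays, open circles are lower bounds where 1 array was not well above background, and dashed lines mark 2-fold. SPRY2 stands at 3.07 in green, and IER3, SPRY1, MYC and DUSP6 lie past 2-fold in red.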

How the data were processed

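Each group was represented by 1 array of pooled RNA. The deposited intensity values came from porcine arrays labelled in 1 color (Cy3) and read by the authors with Agilent Feature Extraction 10.7.3.1, although the methods also name a mouse array, GenePix and a two-color protocol. The processed signal was background-subtracted in that software. Control and outlier spots were left out, repeated spots were averaged, and log2 values were taken relative to each array's 75th percentile. The value table of the series, a signal deposited by the authors, equals the processed signal times 1 constant per array and served as an alternative. A probe well above background on 1 of 2 arrays gave a lower bound, and dim pairs gave no value. The brightest probe over the arrays represented a gene, and the 2-fold cutoff is that of the methods.

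The members and lists were chosen with earlier results of these data known. All members were named, as were pathway genes past 2-fold in any comparison, the receptors and ligands that pair with a member, and markers at background or at the ends of their lists. Pathway genes outside this rule enter the totals, and their own values are mostly not given. Probes without a symbol were matched by accession to RefSeq (Sscrofa11.1). The steps used Python 3.11.15, pandas 2.3.3, R 4.3.3 and limma 3.58.1 (normexp, offset 50, and quantiles), and were tested on simulated data. Scaling to medians, quantiles or spike-in controls, normexp, filters, probe choice and cutoff were the alternatives.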

Additional observations from a re-analysis of the deposited data

How the results depend on the processing

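Under the 10 alternatives, no gene of the group that was past 2-fold turned its direction. In pMA minus PIP, the number of group genes past 2-fold was 1 after scaling to medians and 2 after normexp correction, in place of 4. All gene names past 2-fold numbered 2501 and 824 there, in place of 2515. The median log2 difference of the group genes was 0.71 after scaling to medians, 0.78 after normexp correction and 1.41 after scaling to spike-in controls. The pathway genes past 2-fold numbered 7 after scaling to medians, 9 with no filter on dim probes and 12 at 1.5-fold, in place of 4. Of all gene names, 2501 passed after scaling to medians and 7130 with no filter, in place of 2515. At 1.5-fold, 6344 of 18634 passed. In serotonin minus pMA, scaling to spike-in controls and the 1.5-fold cutoff each gave 2 group genes in place of 1, and 1.5-fold gave 10 pathway genes in place of 6. All gene names past the cutoff numbered 1270 by spike-in controls and 4005 of 19095 at 1.5-fold, in place of 1302. In TNF-α minus pMA, 1.5-fold gave 2 group genes and 6 pathway genes, in place of 1 of each kind, and 2402 of 19783 gene names in place of 704. The pathway number there was also 3 after quantile normalization, 0 after normexp correction and 2 with no filter on dim probes. All gene names past 2-fold numbered 873, 267 and 3242 in these settings. The cause was not tested. The remaining 71 counts and medians stayed within 1.5 times, or within the SD of a difference, of the values in the report.

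Among all gene names past 2-fold, 73.6% were higher in pMA than in PIP, but 34.1% were so after scaling to medians, 54.7% by quantiles and 92.2% by spike-in controls. After serotonin 30.6% were higher, and 45.2% by spike-in controls. After TNF-α 62.2% were higher, 50.2% by medians, 49.3% by quantiles and 74.5% by spike-in controls.

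No paired analysis was possible because each group had 1 array. For the same reason leaving out an array leaves no difference, and the t-test of the methods was not run. Signal over background limited FGF10, whose coding probe was dim on all 4 arrays.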

Other observations

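Some probes outside the rule carry a description that names a group gene. One described as FGFR1, A_72_P050951, shares a run of 51 bases with the brightest FGFR1 probe, and was at 4.09 in PIP, 5.08 in pMA, 4.90 after serotonin and 4.77 after TNF-α. Its differences were 1.00 in pMA minus PIP, -0.19 after serotonin and -0.31 after TNF-α, beside 1.04, -0.24 and -0.33 for that FGFR1 probe. Probes described as FGF10 (A_72_P254892) and as PDGFC (A_72_P113591) were not well above background on any array.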
